A study of Mus musculus with 4 samples.

Results

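The genes described here are the ligands and receptors of the tumour necrosis factor (TNF) superfamily, chosen by symbol alone from the deposited gene lists. The rule took every symbol that starts with Tnfsf or Tnfrsf followed by a digit, and Tnf, Lta, Ltb, Ltbr, Cd27, Cd40, Cd40lg, Cd70 and Fasl. It found 41 of 32285 genes, of which 17 were ligands, 23 receptors and 1 an antisense transcript, Tnfsf13os. The rule reads symbols and no measured value. In the nuclei kept, 38 members held at least 50 UMIs (unique molecular identifiers, each a counted RNA molecule) over the 4 libraries. The other members were the ligands Tnfsf4 with 28 UMIs, Tnfsf18 with 24 and Cd70 with 7.

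The study profiled single nuclei of mouse fat in 4 libraries, 1 for each group, all from animals on a high-fat diet. The groups were surgery and sham surgery in tissue labelled brown (BAT), and surgery and sham surgery in tissue labelled beige (BeAT). The labels do not say which operation was done, nor the strain, age, sex or number of animals behind a library. The molecule is given as nuclear RNA, while the protocol describes a digested tissue and viable cells, so "nuclei" is used here as the labels have it. With 1 library a group there is no spread between animals: every interval below is a 95% interval for counting error alone, and no test was run. Levels are in CPM, the UMIs of a gene per 1000000 UMIs of the library or class named. BAT surgery, BAT sham, BeAT surgery and BeAT sham kept 9159, 9791, 5328 and 9760 nuclei with medians of 5173, 3970, 2654 and 3049 UMIs.

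The tissue labels were not borne out by Ucp1, whose protein uncouples respiration in thermogenic fat cells. Adipocyte-like nuclei held 0 Ucp1 UMIs in BAT surgery against 2 in BAT sham, and 0 in BeAT surgery against 3 in BeAT sham. They held 1168 to 17379 UMIs of the adipocyte hormone Adipoq. The surgery libraries also held cells that the sham libraries nearly lacked. Epithelial-like nuclei made up 62.0% (exact binomial interval 61.0 to 63.0) of BAT surgery against 0.582% of BAT sham. In BeAT surgery against BeAT sham, B cell-like nuclei made up 31.6% against 0.471% and T or NK-like nuclei 29.4% against 1.93%. A lymph node stroma-like cluster of 166 nuclei was 3.12% of BeAT surgery, and 0 nuclei of each other library fell in it, which allows at most 0.0328% in BAT surgery, 0.0306% in BAT sham and 0.0307% in BeAT sham. That cluster carried all 11 of its markers, among them Ccl19, Cxcl13 and Cr2, and its genes of largest fold were Csmd1, Pcdh15 and Adgrb3. These libraries therefore differ in makeup, which cannot be told apart from the operation in whole-library values.

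Ligands of this family are mostly trimers on the surface of immune cells, some of them shed, and each binds 1 or a few receptors on a neighbouring cell. Receptors recruit TRAF adaptors that switch on NF-kB and MAP kinases, and receptors with a death domain can instead start caspase-driven cell death. In lymphoid tissue lymphotoxin, Tnfsf11 and Tnfsf13b set up stroma and keep B cells alive. In fat, TNF signalling through Tnfrsf1a is known for opposing insulin action in adipocytes.

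Family genes lie in small groups in the genome, and 24 of the 41 have another member within 500 kb (GENCODE M21, build GRCm38). Ltb (chr17:35194439-35196320), Tnf (chr17:35199381-35202007) and Lta (chr17:35203165-35205351) stand side by side, as do Cd27 (chr6:125232622-125237010), Ltbr (chr6:125306571-125313885) and Tnfrsf1a (chr6:125349362-125362484). A gene on the opposite strand overlaps 13 members, and no source used here says whether the counting used strand. For that reason values of Cd27 (Vamp1 opposite) and of Tnfsf12, Tnfsf13 and Tnfsf13os (each overlapping another) are uncertain. So are those of Tnfrsf9 (Camta1 opposite) and of the neighbours Tnfrsf22, Tnfrsf23 and Tnfrsf26. The same holds for Tnfsf13b (Gm44789 opposite), Tnfrsf13b (Gm12269), Tnfrsf19 (Gm41168), Tnfsf9 (Gm11110) and Tnfrsf18 (Gm16008). Tnfsfm13 also overlaps Tnfsf12 and Tnfsf13 on their own strand.

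Promoter sequence from RefSeq (GRCm38.p6) was matched for 30 of the 41 genes by symbol. The 250 bases before the start are shown for 3 ligands carried by the lymph node stroma-like nuclei described next and for Ltb, the lymphotoxin subunit of the lymphocytes beside them. Capitals mark the NF-kB consensus, searched on both strands. It was found in 4 of the 34 promoter windows of the family (11.8%), those of Ltb, Tnfrsf8, Tnfrsf25 and Tnfrsf9, and in 2779 of all 32851 windows of the same length of 300 bases (8.46%). The start is that of RefSeq, which for Ltb lies 68 bases inside the GENCODE gene given above. For Tnfsf8 it also lies inside the GENCODE gene, which begins at chr4:63861347 on the minus strand.
Ltb (chr17:35194257-35194506, plus strand): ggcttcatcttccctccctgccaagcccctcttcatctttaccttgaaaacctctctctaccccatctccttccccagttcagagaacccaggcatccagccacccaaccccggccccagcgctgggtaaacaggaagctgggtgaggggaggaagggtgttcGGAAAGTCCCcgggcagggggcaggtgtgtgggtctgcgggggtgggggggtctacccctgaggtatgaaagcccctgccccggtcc
Tnfsf13b (chr8:10006217-10006466, plus strand): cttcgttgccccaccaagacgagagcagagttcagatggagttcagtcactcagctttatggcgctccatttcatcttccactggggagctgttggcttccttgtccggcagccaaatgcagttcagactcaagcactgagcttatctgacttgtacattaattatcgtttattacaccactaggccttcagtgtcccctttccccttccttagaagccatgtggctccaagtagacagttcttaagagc
Tnfsf11 (chr14:78308044-78308293, minus strand): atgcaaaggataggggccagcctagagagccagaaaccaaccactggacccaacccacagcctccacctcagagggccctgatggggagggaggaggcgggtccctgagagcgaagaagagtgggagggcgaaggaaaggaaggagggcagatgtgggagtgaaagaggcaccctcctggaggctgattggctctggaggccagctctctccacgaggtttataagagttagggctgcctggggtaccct
Tnfsf8 (chr4:63861285-63861534, minus strand): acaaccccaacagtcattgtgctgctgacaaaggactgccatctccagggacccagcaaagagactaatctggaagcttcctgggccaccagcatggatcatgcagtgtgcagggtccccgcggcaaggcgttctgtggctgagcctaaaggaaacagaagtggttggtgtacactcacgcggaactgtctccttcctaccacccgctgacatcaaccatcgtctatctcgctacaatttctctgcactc
Only Ltb among these 4 held a match, which is a match of letters and not a measured site.

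**Figure D1:**
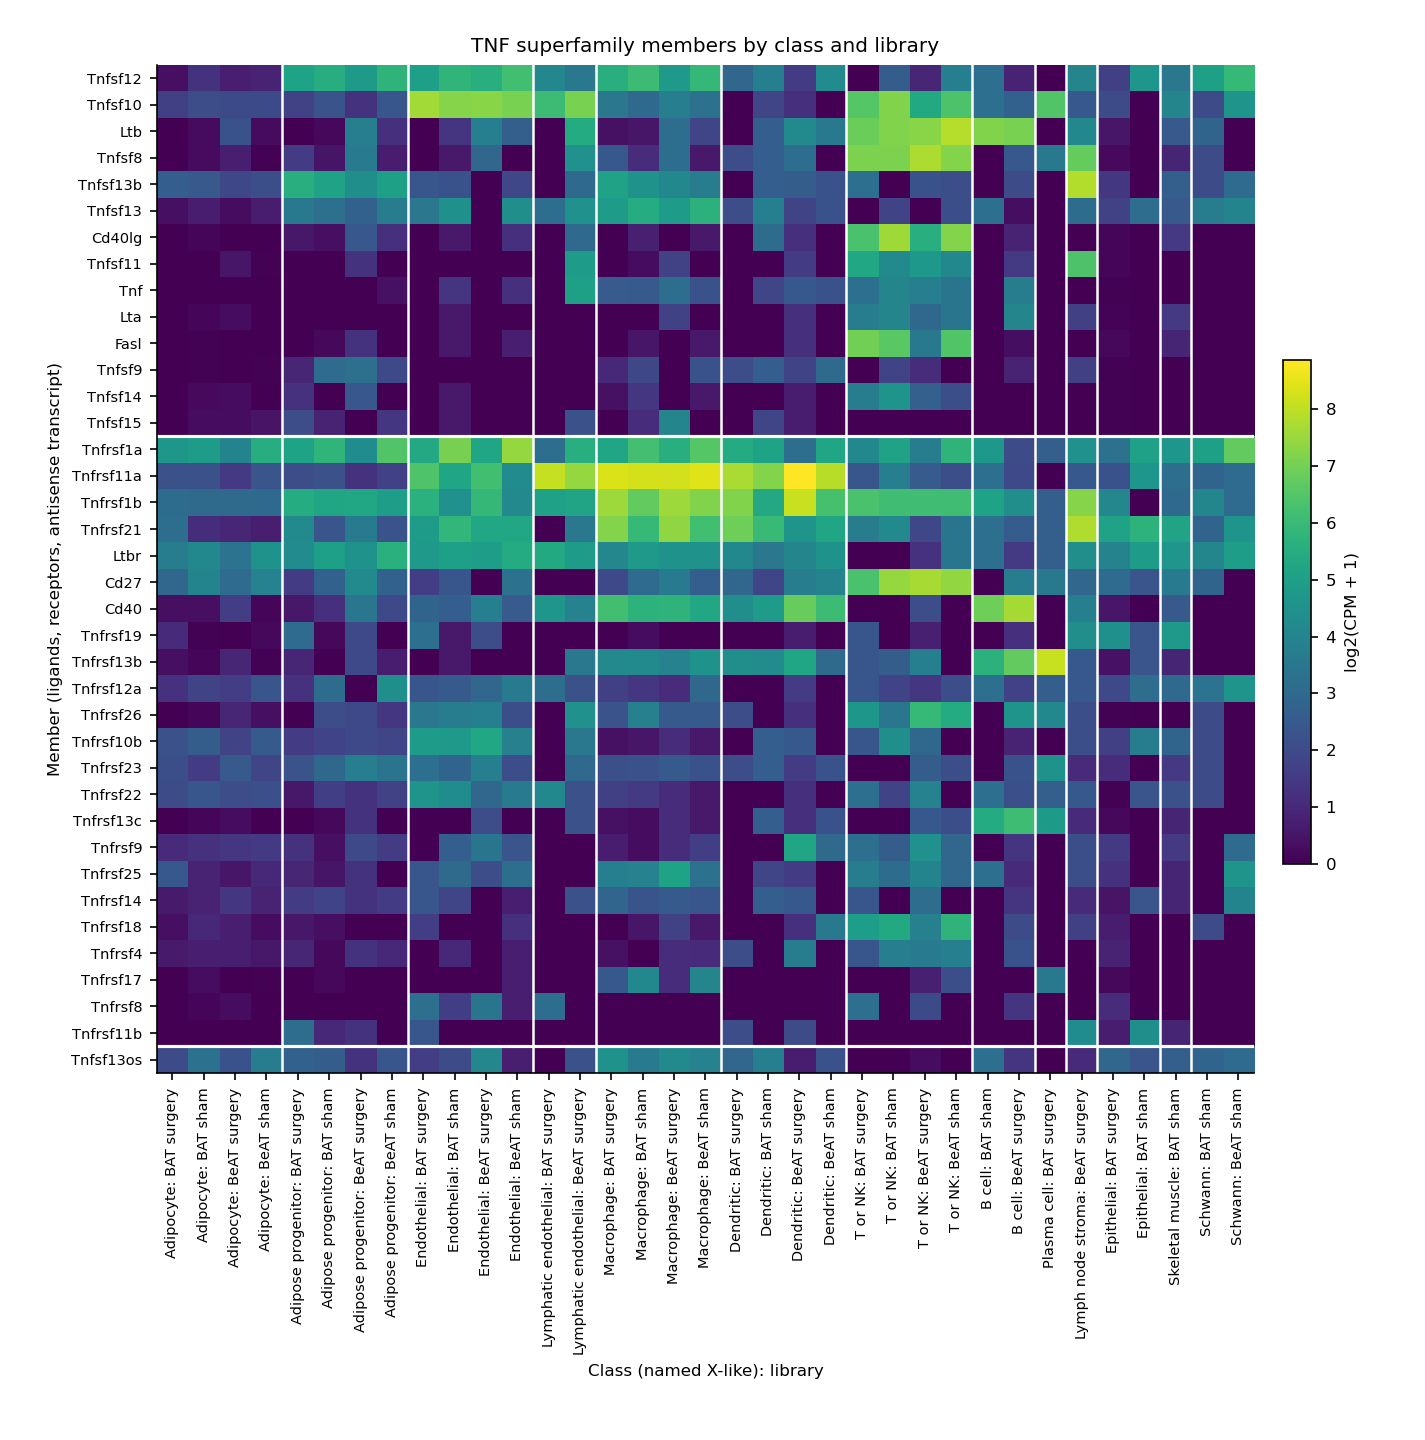
Level of the 38 members with at least 50 UMIs, as log2(CPM + 1), by class and library, for classes of at least 50 nuclei. Rows run from ligands to receptors to the antisense transcript. Tnfrsf11a is bright in macrophage-like, dendritic-like and lymphatic endothelial-like nuclei, and Tnfsf13b in the lymph node stroma-like nuclei of BeAT surgery.

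Levels are compared across classes for 1 gene at a time, not between genes. The lymph node stroma-like nuclei of BeAT surgery carried 3 ligands, of which Tnfsf13b was far higher there than in the library's lymphocytes and macrophages. Tnfsf13b encodes BAFF, the survival factor of B cells, and its level was 230.1 (199.8 to 264) CPM there. In the same library it was 3.17 in B cell-like, 3.71 in T or NK-like and 16.4 in macrophage-like nuclei. The cluster held 70.9% of the Tnfsf13b UMIs of BeAT surgery and 4.69% of all its UMIs. Tnfsf11, or RANKL, which drives osteoclasts and lymph node formation, was at 82.3 (64.6 to 103) in the stroma-like nuclei and 25.3 in T or NK-like nuclei, whose regulatory-like sub-cluster 3 had 103 (82.6 to 127). Tnfsf8, the CD30 ligand, was at 108 (87.4 to 132) in the stroma-like nuclei, below the 216 of T or NK-like nuclei and above the 4.49 of B cell-like nuclei.

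The same nuclei carried receptors. Tnfrsf21, a death-domain receptor also called DR6, was at 226 (196 to 259) in the stroma-like nuclei, against 167 in macrophage-like and 5.01 in B cell-like nuclei of BeAT surgery. Tnfrsf1b, the second TNF receptor, was at 152 there, and Tnfrsf11b, or osteoprotegerin, the soluble decoy of Tnfsf11, at 18.9 from 17 UMIs. Tnfrsf11b was at 0 UMIs in B cell-like, T or NK-like and macrophage-like nuclei of that library. Ltbr, the lymphotoxin beta receptor of lymphoid stroma, was at 20.01 (11.9 to 31.6) in the stroma-like nuclei and 21.7 (12.1 to 35.7) in progenitor-like nuclei of BeAT surgery, and these intervals overlap. Tnf was at 0 UMIs in the stroma-like nuclei, where 3 UMIs would be 3.33 CPM.

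B cell-like nuclei of BeAT surgery held the receptors for Tnfsf13b and for Cd40lg. Cd40, the receptor through which T cells help B cells, was at 203 (189 to 218) in these nuclei and at 119 from 14 UMIs in the 56 B cell-like nuclei of BAT sham. Tnfrsf13c, the BAFF receptor, was at 67.6 (59.5 to 76.4), and Tnfrsf13b, or TACI, the receptor for both Tnfsf13b and Tnfsf13, at 106 (95.97 to 117) in B cell-like nuclei of BeAT surgery. In T or NK-like nuclei of that library the levels were 3.25 for Cd40, 4.41 for Tnfrsf13c and 13.2 for Tnfrsf13b. Each of the 3 receptors was thus higher in B cell-like nuclei by more than its counting error. Over whole libraries Tnfrsf13c was at 0.307 in BAT surgery against 0.342 in BAT sham, and 20.4 in BeAT surgery against 0.182 in BeAT sham. Tnfrsf13b was at 2.99 in BAT surgery against 2.46 in BAT sham, and 34.8 in BeAT surgery against 1.97 in BeAT sham, and Cd40 at 5.48 in BAT surgery against 6.66 in BAT sham, and 60.7 in BeAT surgery against 4.07 in BeAT sham.

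The lymphotoxin and TNF genes were shared between B and T cells. Ltb, which anchors lymphotoxin to the cell surface, was at 135 (123 to 147) in B cell-like and 156 (145 to 169) in T or NK-like nuclei of BeAT surgery. Lta, the other lymphotoxin subunit, was at 15.3 (11.6 to 19.8) in B cell-like and 6.73 (4.51 to 9.67) in T or NK-like nuclei. Tnf was at 12.1 (8.89 to 16.2) and 12.8 (9.62 to 16.6) in these same classes, whose intervals overlap. Whole-library levels were low outside BeAT surgery: Ltb was at 1.400 in BAT surgery against 2.37 in BAT sham, and 74.5 in BeAT surgery against 4.34 in BeAT sham. Lta was at 0.134 in BAT surgery against 0.342 in BAT sham, and 8.18 in BeAT surgery against 0.213 in BeAT sham, and Tnf at 0.403 in BAT surgery against 0.753 in BAT sham, and 7.87 in BeAT surgery against 0.698 in BeAT sham.

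Cluster 21, which holds 306 nuclei of BeAT surgery, stayed unnamed because it mixes B and T cell markers; its leading genes were Pax5, Rgs13 and Ms4a1, with Mki67 among the top 10. Its Lta level was 37.3 (28.5 to 47.9), above that of B cell-like nuclei, and its Cd40 level was 75.1 (62.4 to 89.6), below theirs. Tnfrsf8, or CD30, a receptor of activated lymphocytes, was at 28.1 (20.6 to 37.5) in cluster 21, which held 46 of the 69 Tnfrsf8 UMIs of BeAT surgery. Over whole libraries Tnfrsf8 was at 1.07 in BAT surgery against 0.1596 in BAT sham, and 3.596 in BeAT surgery against 0.0911 in BeAT sham. In BAT surgery epithelial-like nuclei held 82.1% of the Tnfrsf8 UMIs and 75.1% of all UMIs. Plasma cell-like nuclei were numerous enough to describe only in BAT surgery (96 nuclei), where Tnfrsf13b was at 275 (204 to 362) and Tnfrsf17, the plasma cell receptor BCMA, had 2 UMIs. Tnfrsf17 was at 0.4601 in BAT surgery against 1.94 in BAT sham, and 0.365 in BeAT surgery against 1.03 in BeAT sham, and macrophage-like nuclei held 72 of its 85 UMIs in BAT sham.

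**Figure D2:**
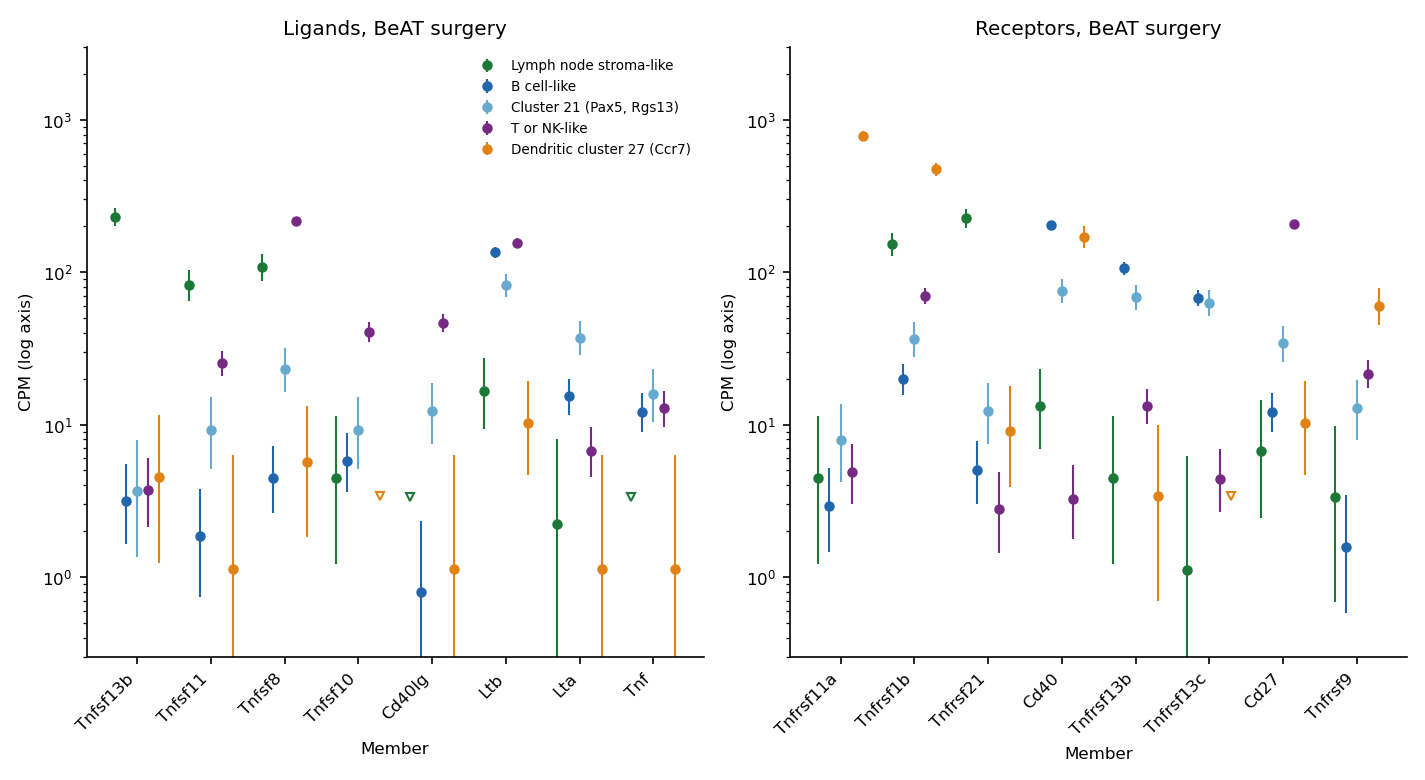
CPM (log axis) of 8 ligands and 8 receptors in 5 populations of BeAT surgery, with exact Poisson 95% intervals; open triangles stand at the level of 3 UMIs where the count was 0, and some intervals run below the axis. Tnfsf13b separates the lymph node stroma-like nuclei (230.1) from the other populations shown, and Tnfrsf11a the dendritic cluster 27 (782).

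T or NK-like nuclei carried several costimulatory members. Cd27, the receptor for Cd70, was at 79.3 in BAT surgery against 176 in BAT sham, and 206 in BeAT surgery against 173 in BeAT sham in this class. Tnfsf8 was at 138 in BAT surgery against 138 in BAT sham, and 216 in BeAT surgery against 146 in BeAT sham, and Cd40lg, the helper signal to B cells, at 79.3 in BAT surgery against 194 in BAT sham, and 46.4 in BeAT surgery against 146 in BeAT sham. Fasl, the killing ligand of cytotoxic cells, was at 125 in BAT surgery against 94.6 in BAT sham, and 10.9 in BeAT surgery against 86.4 in BeAT sham. Cd27 was lowest in BAT surgery, Tnfsf8 highest in BeAT surgery, and Fasl in BeAT surgery lay far under the other libraries. Over whole libraries Tnfsf8 was at 1.304 in BAT surgery against 1.66 in BAT sham, and 58.7 in BeAT surgery against 1.76 in BeAT sham. Cd27 was at 7.21 in BAT surgery against 12.8 in BAT sham, and 55.9 in BeAT surgery against 13.2 in BeAT sham. In BAT surgery epithelial-like nuclei held 79.3% of these Cd27 UMIs and 75.1% of all UMIs. Cd40lg was at 0.518 in BAT surgery against 2.21 in BAT sham, and 11.99 in BeAT surgery against 2.19 in BeAT sham, and Fasl at 0.767 in BAT surgery against 0.981 in BAT sham, and 2.66 in BeAT surgery against 0.972 in BeAT sham.

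Sub-clusters of this class differed in their members. Sub-cluster 3 took the name regulatory-like from Foxp3, Ikzf2, Il2ra, Ctla4 and Ikzf4, and 327 of its 347 nuclei came from BeAT surgery. There Tnfsf8 was at 316 (279 to 356), Tnfsf11 at 103 (82.6 to 127) and Tnfrsf1b at 144 (119.6 to 172). In sub-cluster 1, led by Cd8a-positive nuclei of the same library, these levels were 221, 0 and 48.5. All 3 genes were higher in the regulatory-like nuclei beyond counting error. The costimulatory receptors of activated T cells followed: Tnfrsf9 was at 52.6 in sub-cluster 3 against 15.2 in sub-cluster 1. Tnfrsf4 was at 43.3 in sub-cluster 3 against 1.52 in sub-cluster 1, and Tnfrsf18 at 33.9 in sub-cluster 3 against 12.9 in sub-cluster 1. Neither was particular to sub-cluster 3. Tnfrsf18 was at 82.4 (35.6 to 162) in sub-cluster 5 of BeAT sham and 57.1 (23.0 to 118) in sub-cluster 7 of BAT sham. Tnfrsf4 was at 37.2 (12.1 to 86.8) in sub-cluster 5 of BAT sham. These sham levels rest on 8, 7 and 5 UMIs.

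The helper and killer ligands lay in other sub-clusters. Cd40lg was at 461 (354 to 591) in the Cd4-positive sub-cluster 5 of BAT sham and 288 (192 to 417) in that of BeAT sham. In the Cd4-positive sub-cluster 4 of BeAT surgery it was at 88.6 (66.4 to 116). Sub-clusters 4 and 5 both stayed unnamed. Sub-cluster 5 had Cd4 at 234 and Cd8a at 53.4 CPM, and its genes of largest fold included Cidec, Fabp4, Rbp4, Cd74 and H2-Aa. The NK-like sub-cluster 7 was mostly of the sham libraries, and in its 70 nuclei of BAT sham Fasl was at 196 (126 to 292) and Tnfsf10, the death ligand TRAIL, at 237 (159 to 340.0). Only 6 nuclei of BeAT surgery fell in sub-cluster 7. Sub-cluster 8, with all of its 102 nuclei from BAT surgery, carried Cd3e, Cd8a and Ncr1, but 6 of its 10 genes of largest fold were Lcn5, Lcn8, Adam7, Gpx5, Spag11b and Defb20, and its Fasl level was 151 (100.1 to 218). Sub-cluster 6, with Trdc, Il23r and Ncr1, had Tnfrsf11a at 63.00 (34.4 to 106) in BeAT surgery, where sub-cluster 1 had 0. The members were kept out of the clustering, but the sub-clusters were made from other genes of the same nuclei, so these levels are a description.

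**Figure D3:**
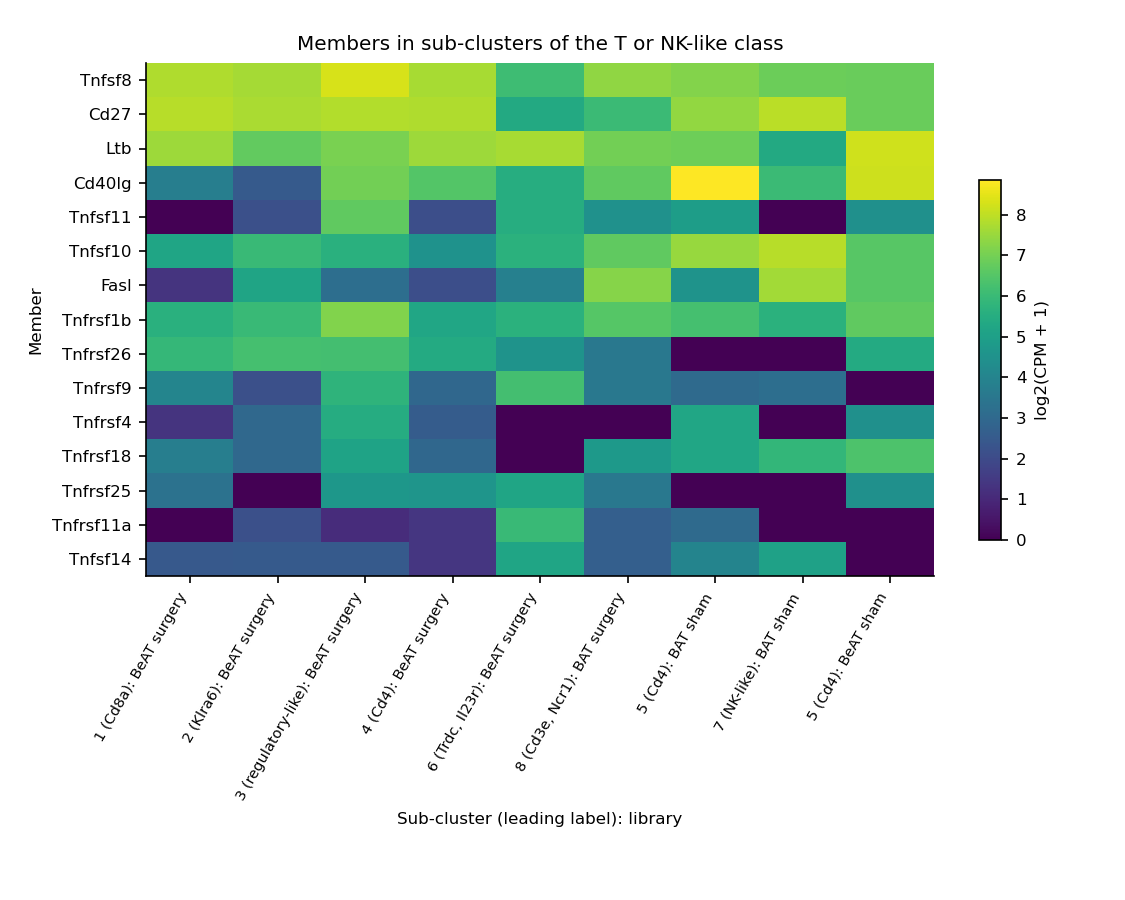
log2(CPM + 1) of 15 members in sub-clusters of the T or NK-like class, for libraries with at least 50 nuclei in the sub-cluster. Cd40lg is brightest in the Cd4-positive sub-cluster 5 of the sham libraries, and Tnfsf11 in the regulatory-like sub-cluster 3 of BeAT surgery.

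The remaining receptors and ligands of lymphocytes were sparse. Tnfrsf26, a mouse receptor of the cluster on chromosome 7, was at 0.805 in BAT surgery against 2.74 in BAT sham, and 21.3 in BeAT surgery against 1.58 in BeAT sham over whole libraries, and T or NK-like nuclei held 258 of its 408 UMIs in BeAT surgery. Tnfrsf9 was at 1.69 in BAT surgery against 1.37 in BAT sham, and 10.1 in BeAT surgery against 2.16 in BeAT sham. Tnfrsf4 was at 0.786 in BAT surgery against 0.638 in BAT sham, and 5.16 in BeAT surgery against 0.729 in BeAT sham, and Tnfrsf18 at 0.729 in BAT surgery against 1.09 in BAT sham, and 5.003 in BeAT surgery against 1.09 in BeAT sham. These 4 receptors had their highest library level in BeAT surgery. In BAT surgery epithelial-like nuclei held 81.8% of the Tnfrsf9, 75.6% of the Tnfrsf4 and 60.5% of the Tnfrsf18 UMIs. They held 2.38% of those of Tnfrsf26, and 75.1% of all UMIs. Tnfrsf14, the receptor HVEM, was at 0.901 in BAT surgery against 1.596 in BAT sham, and 3.44 in BeAT surgery against 1.21 in BeAT sham. Its ligand Tnfsf14, or LIGHT, had 12, 22, 31 and 2 UMIs in BAT surgery, BAT sham, BeAT surgery and BeAT sham. Tnfrsf25, or DR3, was at 2.38 in BAT surgery against 2.44 in BAT sham, and 5.84 in BeAT surgery against 2.06 in BeAT sham, and its ligand Tnfsf15, or TL1A, had 16 UMIs in BAT surgery, 19 in BAT sham, 16 in BeAT surgery and 14 in BeAT sham. Of these 16 Tnfsf15 UMIs of BeAT surgery, 13 lay in macrophage sub-cluster 11, whose 80 nuclei all came from that library and which had Tnfrsf25 at 59.5 (36.8 to 90.97).

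Myeloid nuclei carried Tnfrsf11a, or RANK, the receptor for Tnfsf11. In macrophage-like nuclei it was at 330.1 (310.2 to 351) in BAT surgery against 314 (298 to 332) in BAT sham, and 303 (267 to 342) in BeAT surgery against 346 (320.5 to 374) in BeAT sham. Surgery and sham intervals overlapped in both tissues. Its ligand was nearly absent from macrophage-like nuclei, where Tnfsf11 had 0 UMIs in BAT surgery against 1 in BAT sham, and 2 in BeAT surgery against 0 in BeAT sham. Over whole libraries Tnfrsf11a was at 26.7 in BAT surgery against 39.9 in BAT sham, and 58.1 in BeAT surgery against 27.4 in BeAT sham, and Tnfsf11 at 0.268 in BAT surgery against 0.182 in BAT sham, and 11.6 in BeAT surgery against 0.182 in BeAT sham. The lipid-associated-like macrophage sub-cluster 5, named from Trem2, Gpnmb and 5 more markers, had Tnfrsf11a at 531 (469 to 599) in BeAT sham. In that library the resident-like sub-clusters had 318 (253 to 393) in sub-cluster 3 and 214 (167 to 270.2) in sub-cluster 4. The unnamed sub-cluster 2, with the resident markers Mrc1, F13a1 and Cd163, had 471 (405 to 545), which overlaps sub-cluster 5. Macrophages also carried Tnfsf13, or APRIL, a second ligand of Tnfrsf13b, at 28.4 in BAT surgery against 44.3 in BAT sham, and 28.1 in BeAT surgery against 50.6 in BeAT sham in their class and 4.601 in BAT surgery against 8.25 in BAT sham, and 2.71 in BeAT surgery against 8.32 in BeAT sham over whole libraries. Tnfsf13b in macrophage sub-cluster 9, with 110 of its 112 nuclei from BAT surgery, was at 211 (163 to 268) against 33.5 in the whole class. Over whole libraries Tnfsf13b was at 6.001 in BAT surgery against 10.9 in BAT sham, and 15.2 in BeAT surgery against 6.68 in BeAT sham.

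Dendritic-like nuclei were of 3 clusters. Cluster 24, led by Wdfy4, Clec9a and Flt3, held 53 of 59 of these nuclei in BAT surgery and 88 of 91 in BAT sham, but 113 of 368 in BeAT surgery and 67 of 86 in BeAT sham. Cluster 27, with Ccr7 among its leading genes, held 173 of the 368 in BeAT surgery. There Tnfrsf11a was at 782 (725 to 842), Tnfrsf1b at 475 (430.4 to 522) and Cd40 at 170.0 (144 to 199). In cluster 24 of the same library these levels were 83.04, 40.2 and 56.3. Ccr7 marks dendritic cells that move to lymph nodes, and all 3 receptors were higher in that cluster beyond counting error. Cluster 35, led by Siglech, had Tnfrsf13b at 132 (94.8 to 179). With doublets kept, the dendritic-like class was drawn differently and its Tnfrsf11a level in BeAT surgery was 62.6 in place of 465.

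Endothelial-like and T or NK-like nuclei carried Tnfsf10. It was at 199.7 in BAT surgery against 153 in BAT sham, and 157 in BeAT surgery against 134 in BeAT sham in endothelial-like nuclei. In T or NK-like nuclei it was at 91.8 in BAT surgery against 143 in BAT sham, and 40.6 in BeAT surgery against 83.1 in BeAT sham, and in adipocyte-like nuclei at 2.22 in BAT surgery against 3.28 in BAT sham, and 3.01 in BeAT surgery against 2.93 in BeAT sham. Endothelial-like nuclei had the highest level of these 3 classes in every library. Over whole libraries Tnfsf10 was at 7.32 in BAT surgery against 14.1 in BAT sham, and 17.8 in BeAT surgery against 15.2 in BeAT sham. Its death receptor Tnfrsf10b was at 29.1 in BAT surgery against 26.3 in BAT sham, and 39.2 in BeAT surgery against 13.6 in BeAT sham in endothelial-like nuclei and 2.49 in BAT surgery against 5.45 in BAT sham, and 4.27 in BeAT surgery against 4.83 in BeAT sham over whole libraries. Of the decoy receptors of the mouse for this ligand, Tnfrsf22 was at 0.863 in BAT surgery against 4.26 in BAT sham, and 5.73 in BeAT surgery against 3.31 in BeAT sham. Tnfrsf23 was at 1.84 in BAT surgery against 3.58 in BAT sham, and 4.64 in BeAT surgery against 3.73 in BeAT sham. Lymphatic endothelial-like nuclei numbered at least 50 only in the surgery libraries, and there Tnfrsf11a was at 271 (187 to 381) in BAT surgery and 173 (128 to 229) in BeAT surgery. Those levels were above 85.3 and 71.9 in endothelial-like nuclei of the same libraries.

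Tnfrsf1a, the widespread first TNF receptor, had its highest level among named classes in endothelial-like nuclei of the sham libraries. It was at 39.5 in BAT surgery against 130.5 in BAT sham, and 35.97 in BeAT surgery against 175 in BeAT sham. In the unnamed cluster 18, described below, it was at 137 (115 to 161) in BAT sham and 224 (198 to 253) in BeAT sham. In adipocyte-like nuclei it was at 24.9 in BAT surgery against 28.9 in BAT sham, and 15.04 in BeAT surgery against 45.4 in BeAT sham, and in progenitor-like nuclei at 34.6 in BAT surgery against 54.2 in BAT sham, and 18.8 in BeAT surgery against 86.7 in BeAT sham. Over whole libraries Tnfrsf1a was at 16.2 in BAT surgery against 46.9 in BAT sham, and 13.5 in BeAT surgery against 71.96 in BeAT sham. Surgery was lower than sham in 11 of the 12 pairs of class and tissue, the exception being dendritic-like nuclei of BAT, at 43.2 in BAT surgery against 34.2 in BAT sham. Those 12 pairs rest on 2 libraries a tissue and are not independent. With doublets kept the endothelial level was 83.8 in BAT sham and 112 in BeAT sham, still over 2-fold above surgery in each tissue. Tnfrsf1b was at 29.2 in BAT surgery against 23.5 in BAT sham, and 66.03 in BeAT surgery against 19.4 in BeAT sham over whole libraries, and in macrophage-like nuclei at 190.4 in BAT surgery against 105 in BAT sham, and 190.0 in BeAT surgery against 144 in BeAT sham.

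**Figure D4:**
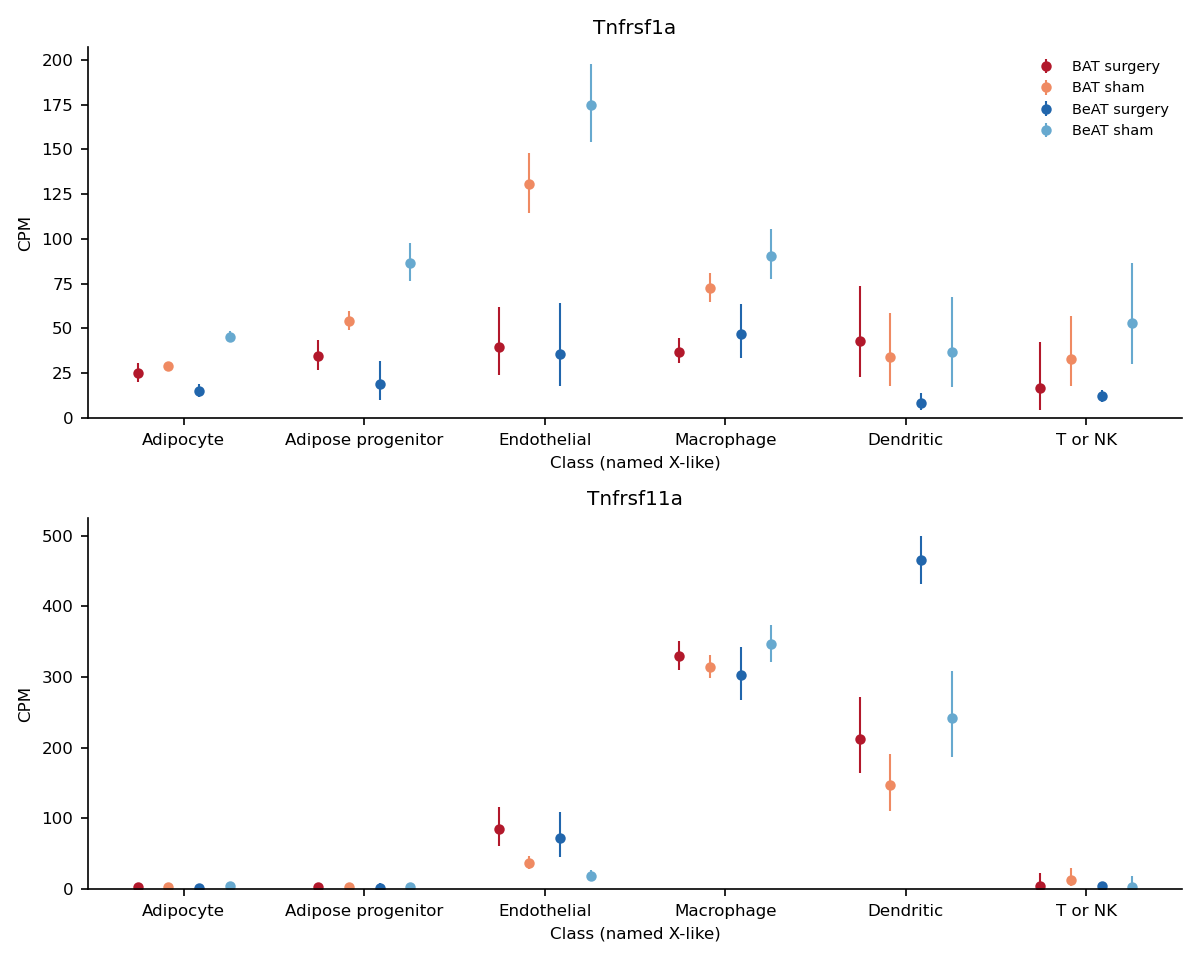
CPM of Tnfrsf1a (top) and Tnfrsf11a (bottom) in the 6 classes compared, by library, with exact Poisson 95% intervals. Tnfrsf1a lies lower in surgery than in sham in 11 of 12 pairs, while Tnfrsf11a in macrophage-like nuclei lies between 303 and 346 in all 4 libraries.

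Progenitor-like and adipocyte-like nuclei carried few ligands. Tnfsf12, or TWEAK, was at 34.6 in BAT surgery against 45.1 in BAT sham, and 27.5 in BeAT surgery against 53.5 in BeAT sham in progenitor-like nuclei, and its receptor Tnfrsf12a, or Fn14, at 1.42 in BAT surgery against 7.87 in BAT sham, and 0 in BeAT surgery against 20.3 in BeAT sham. The highest Tnfsf12 level among named classes was in endothelial-like nuclei of BeAT sham, at 71.0. Resident-like macrophage sub-cluster 4 had Tnfsf12 at 118 in BAT sham and 90.5 in BeAT sham. Tnfsf13b in progenitor-like nuclei was at 45.9 in BAT surgery against 33.1 in BAT sham, and 20.2 in BeAT surgery against 31.9 in BeAT sham. The levels of Tnfsf12 over whole libraries were 7.84 in BAT surgery against 21.02 in BAT sham, and 5.06 in BeAT surgery against 21.4 in BeAT sham. Tnfrsf12a was at 3.01 in BAT surgery against 4.31 in BAT sham, and 1.93 in BeAT surgery against 7.68 in BeAT sham, and Ltbr, which progenitors and adipocytes both carried, at 15.9 in BAT surgery against 22.03 in BAT sham, and 8.23 in BeAT surgery against 28.7 in BeAT sham. Tnfsf9, a costimulatory ligand, was at 0.173 in BAT surgery against 1.69 in BAT sham, and 2.03 in BeAT surgery against 0.8502 in BeAT sham, and progenitor-like nuclei held 53 of its 74 UMIs in BAT sham. Tnfsf13os was at 6.88 in BAT surgery against 7.78 in BAT sham, and 2.66 in BeAT surgery against 9.59 in BeAT sham, and adipocyte-like nuclei held 253 of its 316 UMIs in BeAT sham. Its highest level among named classes was in macrophage-like nuclei of BAT surgery, at 22.0. Adipocyte-like cluster 11 of BeAT sham had 12.1.

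In BAT surgery the epithelial-like nuclei carried 75.1% of all UMIs and 90.2% of those of Tnfrsf19, or TROY, a receptor related to the ectodysplasin receptor. Tnfrsf19 was at 17.3 in BAT surgery against 1.12 in BAT sham, and 1.72 in BeAT surgery against 0.547 in BeAT sham over whole libraries, and 6.95 in BAT surgery with lymphoid, plasma cell and epithelial classes left out. Its level was 48.9 (44.6 to 53.5) in epithelial-like cluster 9 and 53.9 (40.8 to 69.8) in cluster 25. It was not confined to epithelium: skeletal muscle-like nuclei of BAT sham had 27.1 (18.3 to 38.7), against 20.8 (19.4 to 22.2) over all epithelial-like nuclei of BAT surgery. Muscle-like cluster 34, with 88 nuclei, held 29 Tnfrsf19 UMIs there, at 64.9 (43.5 to 93.3). Muscle-like cluster 22, with 323 nuclei, held 1. Tnfrsf21 was at 390.3 (354 to 429.7) in cluster 32, led by Fyb2, Frem1 and Slco1a5, and at 290.2 (259 to 325) in cluster 25, led by Rmst, Shisa9 and Abcb5. Over whole libraries Tnfrsf21 was at 39.6 in BAT surgery against 16.6 in BAT sham, and 24.9 in BeAT surgery against 12.4 in BeAT sham, and Tnfrsf11b at 0.9202 in BAT surgery against 0.319 in BAT sham, and 1.25 in BeAT surgery against 0.121 in BeAT sham. In the unnamed cluster 18, led by the mural cell genes Rgs5, Myh11 and Tagln, Tnfrsf21 was at 156 (133 to 183) in BAT sham and 88.2 (71.9 to 107) in BeAT sham.

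Whole libraries were then compared by size. A gene was counted as higher or lower where both libraries held at least 50 UMIs together, the ratio of CPM was at least 2-fold and its exact binomial interval excluded 1; a library at 0 was put at 3 UMIs. In BAT surgery against BAT sham 12 of 33 members that reached 50 UMIs passed, 4 higher and 8 lower, where 40.5% of 18835 genes passed. In BeAT surgery against BeAT sham 30 of 34 members passed, 24 higher and 6 lower, where 42.9% of 16336 genes passed. The median log2 ratio was 1.58 over these members and 0.02 over all genes in BeAT, and -0.59 and 0.15 in BAT. The largest BeAT ratios were those of Tnfrsf13c, at 112 (50.9 to 307), Tnfsf11, at 63.5 (28.7 to 175), Tnfrsf8, at 39.5 (12.96 to 196) from 69 UMIs against 3, and Lta, at 38.5 (18.3 to 97.3). The minimum counts both libraries together, so a member can reach it through 1 library alone, as Tnfrsf8 did through BeAT surgery. The number that passed, the median and the largest ratios include such members, and the within-class comparison below uses the same minimum. The 6 lower members of BeAT surgery were Tnfrsf1a, Tnfsf12, Tnfrsf12a, Tnfsf13os, Ltbr and Tnfsf13. B cell-like and T or NK-like nuclei made up most of BeAT surgery, and the part of that makeup in these ratios was not tested. Tnfrsf19, Tnfrsf21 and Tnfrsf8 were higher, and Tnfrsf1a and Tnfsf12 lower, in surgery in both tissues. The higher members of BAT surgery were Tnfrsf19, at 15.5 (11.6 to 21.1), Tnfrsf8, Tnfrsf11b and Tnfrsf21. Epithelial-like nuclei held 90.2%, 82.1%, 47.9% and 64.1% of their UMIs there, in that order, and 75.1% of all UMIs. Their part in these ratios was not tested. The lower members of BAT surgery were Tnfrsf1a, Tnfrsf26, Tnfrsf22, Tnfsf12, Tnfrsf10b, Tnfrsf17, Cd40lg and Tnfsf9, the last by 9.78 (4.88 to 22.2)-fold.

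Surgery and sham were next compared within the 6 classes of at least 50 nuclei in both libraries. Over classes, 15 of 55 pairs of member and class passed in BAT (6 higher, 9 lower) and 19 of 54 in BeAT (4 higher, 15 lower). Over all pairs of gene and class the shares were 16.5% in BAT and 23.2% in BeAT. Epithelial-like nuclei were left out because 55 of the 57 of BAT sham lay in cluster 36, which held 0 of BAT surgery. In adipocyte-like nuclei of BAT 3 of 13 members passed, where 17.4% of all genes did. Tnfrsf21 was at 8.31 in BAT surgery against 1.22 in BAT sham, a ratio of 6.79 (3.97 to 11.6). The 7 epithelial markers summed to 21.9 CPM in these nuclei of BAT surgery, with Krt5 at 0, against 2.17 in BAT sham, and their part in that ratio was not tested. Cd27 and Tnfsf13os were lower. Cd27 was lower by 2.28 (1.51 to 3.61)-fold and Tnfsf13os by 2.97 (1.63 to 6.03)-fold. The adipocyte-like nuclei of BAT surgery lay almost wholly in cluster 19 (526 of 573), where BAT sham had 1 nucleus. With the trend over gene span taken off, described next, Cd27 no longer passed in this class.

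In adipocyte-like nuclei of BeAT 5 of 12 members passed, all lower in surgery, where 20% of all genes passed. Tnfrsf1a was at 15.04 in BeAT surgery against 45.4 in BeAT sham, lower by 3.02 (2.34 to 3.94)-fold. Tnfsf13os was lower by 3.28 (1.98 to 5.83)-fold, Ltbr by 2.28 (1.66 to 3.23)-fold, Tnfrsf11a by 2.21 (1.07 to 5.28)-fold and Tnfrsf12a by 2.03 (1.02 to 4.59)-fold. Short genes as a whole were lower in surgery: the median log2 ratio of genes with a span like that of Tnfrsf12a was -1.38, and that of genes like Ltbr -0.71. With the trend over span taken off, an alternative chosen after the data were seen, Tnfrsf12a and Ltbr no longer passed in this class, the ratio of Tnfrsf12a turning to 1.28, and Tnfrsf1a, Tnfsf13os and Tnfrsf11a still passed. Whether span has a part in the values was not tested.

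In progenitor-like nuclei 3 of 10 members passed in BAT, where 18.4% of all genes did. Tnfrsf21 was at 17.5 in BAT surgery against 4.01 in BAT sham, a ratio of 4.37 (2.604 to 7.42). Epithelial markers summed to 50.7 CPM in these nuclei of BAT surgery against 1.29 in BAT sham, with Elf5 at 0 in both, and their part was not tested. Tnfsf9 was lower by 8.01 (2.11 to 67.9)-fold, and Tnfrsf12a by 5.54 (1.799 to 27.7)-fold. Of the 562 nuclei of BAT surgery 536 lay in cluster 15, led by C7, Col6a5 and Wt1, and 184 of the 1721 of BAT sham. In BeAT 3 of 6 members passed, where 22.6% of all genes did, and all were lower in surgery. Tnfrsf12a had 0 UMIs in BeAT surgery against 63 in BeAT sham, 4.69-fold lower with the 0 put at 3 UMIs. Tnfrsf1a was at 18.8 in BeAT surgery against 86.7 in BeAT sham, lower by 4.62 (2.66 to 8.79)-fold, and Ltbr by 2.23 (1.31 to 4.09)-fold. With the span trend taken off, Tnfrsf1a still passed and the other 2 did not.

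In endothelial-like nuclei of BAT 3 of 8 members passed, where 17.5% of all genes did. Tnfrsf1a was lower by 3.300 (2.07 to 5.57)-fold. Tnfrsf11a was higher, at 85.3 in BAT surgery against 36.8 in BAT sham, a ratio of 2.32 (1.54 to 3.45), and Tnfrsf1b had a ratio of 2.32 (1.34 to 3.92). In BeAT 1 of 5 passed, where 36.3% of all genes did: Tnfrsf1a was lower by 4.86 (2.67 to 9.85)-fold. Tnfrsf11a in BeAT had 22 UMIs in surgery and 27 in sham, 1 short of the minimum, at 71.9 in BeAT surgery against 18.4 in BeAT sham. B cell and T cell markers were also higher in these nuclei of BeAT surgery: all 6 B cell markers were found and summed to 556 CPM, against 5 of 6 and 34.1 in BeAT sham, with Ms4a1 at 0. The 8 T or NK markers summed to 216 in BeAT surgery, with Trbc2 and Klrb1c at 0, against 115 in BeAT sham. Their part in the endothelial values was not tested.

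In macrophage-like nuclei of BAT 3 of 15 members passed, where 15.6% of all genes did. Tnfrsf21 was at 148 in BAT surgery against 60.3 in BAT sham, a ratio of 2.46 (2.11 to 2.87). Tnfrsf26 was lower by 3.51 (1.86 to 7.18)-fold and Tnfrsf17 by 3.73 (2.09 to 7.17)-fold. In BeAT 2 of 9 passed, where 22.5% of all genes did. Tnfrsf21 was at 167 in BeAT surgery against 70.7 in BeAT sham, a ratio of 2.36 (1.85 to 3.01), and Tnfsf12 was lower by 2.17 (1.38 to 3.56)-fold. In the macrophage cluster best filled by BeAT surgery, cluster 13 with 154 nuclei there and 233 in BeAT sham, the Tnfrsf21 ratio was 1.58, under the 2-fold limit, and with the span trend taken off it was 1.92. Tnfsf12 no longer passed with the span trend taken off or with doublets kept. In BAT Tnfrsf21 was high in macrophage sub-cluster 10, all of whose 109 nuclei came from BAT surgery, at 363 (309 to 423). The 7 epithelial markers summed to 30.4 CPM in macrophage-like nuclei of BAT surgery, with Elf5 at 0, against 2.32 in BAT sham, with Krt5 at 0, and epithelial-like nuclei of BAT surgery had Tnfrsf21 at 33.8; their part in the BAT ratio was not tested. In BeAT all 7 epithelial markers were at 0 in macrophage-like nuclei of both libraries.

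In dendritic-like nuclei of BAT 1 of 3 members passed, where 13.9% of all genes did: Tnfrsf1b was at 143 in BAT surgery against 39.4 in BAT sham, a ratio of 3.62 (1.97 to 7.02). In BeAT 3 of 5 passed, where 27.8% of all genes did. Tnfrsf1b had a ratio of 3.64 (2.35 to 5.93), Tnfrsf9 of 4.96 (1.31 to 41.9) and Tnfrsf13b of 4.87 (1.29 to 41.2). Tnfrsf9 and Tnfrsf13b rest on 2 UMIs each in BeAT sham. Cluster 35, led by Siglech, held 41 Tnfrsf13b UMIs in BeAT surgery. It held 82 of the 368 dendritic-like nuclei there and 3 of the 86 in BeAT sham. Its part in the Tnfrsf13b ratio was not tested. Within cluster 24 alone Tnfrsf1b was at 140.4 in BAT surgery against 32.6 in BAT sham, and 40.2 in BeAT surgery against 52.1 in BeAT sham. The BeAT difference was thus not seen inside that cluster. With doublets kept, Tnfrsf1b and Tnfrsf9 gave no value in BeAT.

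In T or NK-like nuclei of BAT 2 of 6 members passed, where 8.16% of all genes did. Cd27 was lower by 2.23 (1.32 to 3.92)-fold, and Cd40lg by 2.45 (1.47 to 4.29)-fold. In BeAT 5 of 17 passed, all lower in surgery, where 16.6% of all genes passed. Fasl was at 10.9 in BeAT surgery against 86.4 in BeAT sham, lower by 7.92 (4.71 to 13.1)-fold. Cd40lg was lower by 3.15 (2.22 to 4.39)-fold, Tnfrsf1a by 4.41 (2.35 to 7.84)-fold, Tnfrsf18 by 3.88 (2.09 to 6.84)-fold and Tnfsf10 by 2.05 (1.29 to 3.12)-fold. The sub-clusters behind the class differed: NK-like sub-cluster 7 held 6 of 1567 nuclei in BeAT surgery and 41 of 188 in BeAT sham, and sub-cluster 5 held 7 in BeAT surgery and 58 in BeAT sham. Cd27 in BAT and Tnfrsf18 in BeAT no longer passed with the span trend taken off, nor did Cd27, BAT Cd40lg and Tnfsf10 with doublets kept. Of the calls named within classes, Tnfsf13os in adipocyte-like, Tnfrsf12a in progenitor-like, Tnfrsf1b in dendritic-like, Tnfrsf1a in endothelial-like, Tnfrsf21 in macrophage-like and Cd40lg in T or NK-like nuclei passed in the same direction in both tissues.

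**Figure D5:**
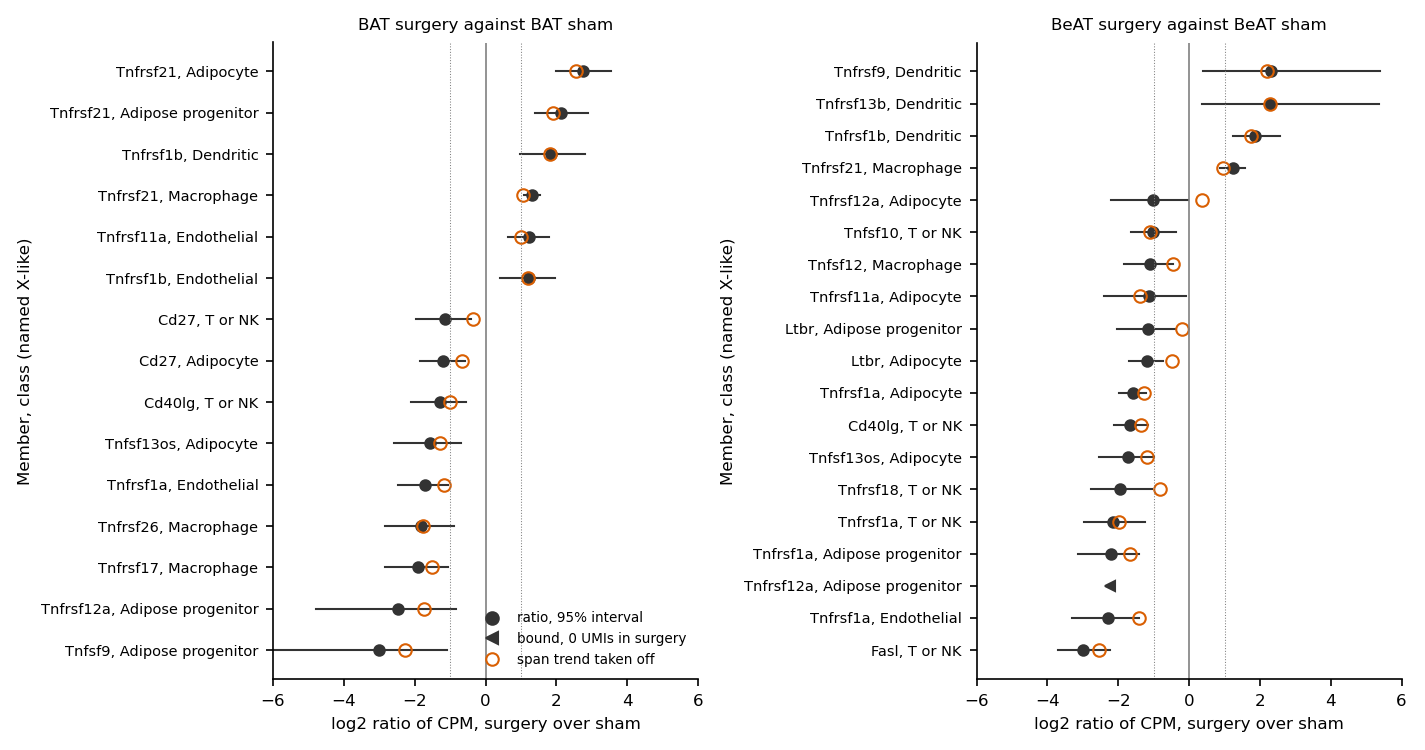
log2 ratio of CPM, surgery over sham, for the 15 calls of BAT and 19 of BeAT within classes, with exact binomial 95% intervals. Open circles give the ratio with the trend over gene span taken off; dotted lines stand at 2-fold. Tnfrsf21 leads BAT (6.79-fold in adipocyte-like nuclei) and Fasl in T or NK-like nuclei of BeAT is 7.92-fold lower. Tnfrsf12a in progenitor-like nuclei of BeAT is drawn with its surgery count put at 3 UMIs and may lie lower.

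Genes downstream of the receptors were read from 4 lists of 49 genes in all: adaptors, kinases and NF-kB, cell death genes, and feedback and target genes. In endothelial-like nuclei of BeAT 12 of 25 that reached 50 UMIs were higher in surgery and 0 lower, where 36.3% of all genes passed. Among them the adaptor Traf3 was at 124 in BeAT surgery against 23.9 in BeAT sham, the NF-kB subunit Relb at 108 in BeAT surgery against 42.3 in BeAT sham and the adhesion molecule Vcam1 at 141 in BeAT surgery against 45.04 in BeAT sham. As given above, B cell and T or NK markers were also higher in these endothelial-like nuclei of BeAT surgery. Their part in these values was not tested. In endothelial-like nuclei of BAT 7 of 30 were higher and 1 lower, where 17.5% of all genes passed. Vcam1 was at 252 in BAT surgery against 68.4 in BAT sham, and Icam1, a second adhesion molecule induced by NF-kB, at 231 in BAT surgery against 59.97 in BAT sham. Macrophage-like nuclei had 4 higher of 45 in BAT (8.89%, against 15.6% of all genes), and 12 higher and 1 lower of 38 in BeAT (34.2%, against 22.5%). Dendritic-like nuclei had 2 higher of 21 in BAT (9.52%, against 13.9% of all genes) and 15 higher of 35 in BeAT (42.9%, against 27.8%), where cluster 27 held 47.0% of the nuclei of surgery and 18.6% of those of sham. Relb there was at 855 in BeAT surgery against 209 in BeAT sham.

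Adipocyte-like nuclei had 7 higher and 1 lower of 39 in BAT, and 4 higher and 2 lower of 41 in BeAT. These shares, 20.5% and 14.6%, stand beside 17.4% and 20% of all genes, and nothing is read from them about the lists. Map3k14, the NF-kB inducing kinase, was at 39.3 in BAT surgery against 14.8 in BAT sham, and at 30.5 in BeAT surgery against 12.9 in BeAT sham. Rel, an NF-kB subunit, was at 28.5 in BAT surgery against 10.5 in BAT sham, and at 25.9 in BeAT surgery against 7.35 in BeAT sham. Map3k14 and Rel are examples from the higher side alone, and the list genes that passed as lower are not named here. Progenitor-like nuclei had 2 higher and 1 lower of 41 in BAT (7.32%, against 18.4% of all genes), and 8 higher and 3 lower of 39 in BeAT (28.2%, against 22.6%), where the chemokine Ccl2 was at 7.22 in BeAT surgery against 30.3 in BeAT sham. T or NK-like nuclei had 2 higher of 20 in BAT (10%, against 8.16% of all genes), and 2 higher and 1 lower of 39 in BeAT (7.69%, against 16.6%). Of 6 family genes whose symbols the rule does not cover, Eda, the ectodysplasin ligand, passed in adipocyte-like nuclei of both tissues, at 247 in BAT surgery against 123 in BAT sham and at 233 in BeAT surgery against 84.1 in BeAT sham. Fas, the receptor of Fasl, was at 46.8 in BAT surgery against 96.3 in BAT sham.

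Lymphoid members were also counted in nuclei not known to make them. Ltb, which adipocytes are not known to make, was at 3.702 in adipocyte-like nuclei of BeAT surgery against 0.192 in BeAT sham. In progenitor-like nuclei it had 9 UMIs in the 171 nuclei of BeAT surgery against 4 in the 984 of BeAT sham. Where these UMIs come from was not tested. Among the libraries 313 barcode sequences recurred, 36 to 73 for a pair of libraries.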

How the data were processed

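Single-nucleus libraries were made with a SeekGene kit, per the labels' protocols, and the authors deposited raw UMI counts per gene and barcode, 1 matrix a library. Per the submitters' processing notes the genome build was mm10 and Seurat 4.4.0 was among the tools; the aligner is not given in the sources used here, nor the counting program and its use of strand. Total counts were 60409801, 47525684, 23118695 and 35675477 UMIs in BAT surgery, BAT sham, BeAT surgery and BeAT sham.

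From these counts, barcodes with at least 500 UMIs, 300 genes and under 10% mitochondrial UMIs were kept. Scrublet removed 783, 625, 621 and 623 barcodes as doublets in the same order; in both sham libraries its own threshold marked 1 and 0, so the top 6% by score were removed. Nuclei were clustered with scanpy 1.11.5 (Python 3.11.15, scipy 1.17.1) on 2000 variable genes without the members, 30 principal components, 15 neighbours and Leiden resolution 1.0, and T or NK-like and macrophage-like nuclei again at 0.5. A cluster was named from at least 3 listed markers; the limits of that naming were set after the clusters had been seen. Class counts were summed per library and given as CPM (per 1000000 UMIs) with exact Poisson intervals, ratios with exact conditional binomial intervals, shares with exact Clopper-Pearson intervals, all at 95%. The size rule was tested on simulated counts.

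Members with at least 50 UMIs over the 4 libraries are named with values, as is every member that passed the size rule. Members, marker lists and pathway lists were chosen with earlier results of these data known. Alternatives changed the scaling, the minimum, the fold limit, the depth, the doublets, the clusters of a class, the variable genes and the Leiden resolution.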

Additional observations from a re-analysis of the deposited data

Results flagged for a closer look

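Over whole libraries, 3 members moved in opposite directions in the 2 tissues, and the difference between tissues was not tested. Cd40lg had a ratio of 0.234 in BAT surgery over BAT sham and 5.48 in BeAT surgery over BeAT sham. Tnfrsf26 had ratios of 0.294 in BAT and 13.5 in BeAT. Tnfsf9 had ratios of 0.102 in BAT and 2.39 in BeAT. T or NK-like nuclei made up 1.496% of BAT surgery against 2.11% of BAT sham, and 29.4% of BeAT surgery against 1.93% of BeAT sham. Progenitor-like nuclei, which held most Tnfsf9 UMIs of BAT sham, made up 6.14% of BAT surgery against 17.6% of BAT sham. In BeAT surgery the unnamed cluster 21 held 19 Tnfsf9 UMIs. Epithelial-like nuclei carried 75.1% of all UMIs of BAT surgery. The part of these shares in the 3 pairs of ratios was not tested. Within T or NK-like nuclei Cd40lg was lower in surgery in both tissues.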

How the results depend on the processing

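Within classes, the 15 BAT calls became 26 with no minimum of UMIs, 26 at a 1.5-fold limit, 4 with nuclei thinned to 1000 UMIs and 8 in 1 cluster of each class. The 19 BeAT calls became 29 with a minimum of 20 UMIs, 43 with none, 9 thinned and 10 in 1 cluster. Fewer pairs of member and class reached the minimum there: 19 in BAT and 22 in BeAT when thinned, and 32 and 34 in 1 cluster. A looser limit cannot end a call, so only the other settings bear on the 34 calls. Of these, 33 still passed with median-of-ratios size factors, 25 of 34 with the trend over gene span taken off (an alternative chosen after seeing the data), 25 of the 29 that had a value with doublets kept, 14 of 18 in 1 cluster and 11 of 13 thinned. With the span trend taken off 1 ratio reversed: Tnfrsf12a in adipocyte-like nuclei of BeAT had a ratio of 1.28. The cause was not tested.

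With only nuclei of at least 1000 UMIs, Cd40 in B cell-like nuclei of BeAT surgery was 178 CPM and Tnfrsf11a in macrophage-like nuclei of BeAT surgery 249.5. Tnfrsf11a in macrophage-like nuclei was 274 in BAT sham and 304.5 in BeAT sham with doublets kept, and 315.5 in BeAT sham at Leiden resolution 2.0. Outside lymphoid, plasma cell and epithelial classes, whole-library levels were 23.8 for Tnfsf13b and 34.4 for Cd40 in BeAT surgery, and 58.7 for Tnfrsf21 in BAT surgery. Adipocyte-like nuclei of BAT gave no value from 1 cluster, since cluster 19 held 526 nuclei of BAT surgery and 1 of BAT sham. No paired analysis was possible because each group holds 1 library. Depth limits the counts: in dendritic-like nuclei only 3 members in BAT and 5 in BeAT reached 50 UMIs.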
